A study of Homo sapiens with 12 samples.

Results

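Cassette exons of vesicle traffic genes were followed through depletion of TIP60, the lysine acetyltransferase encoded by KAT5, in MCF10A, an established line of human mammary epithelial cells that does not form tumors. A cassette exon is an internal exon that a transcript can include or skip between 2 fixed neighbours, and each such trio of exons is called an event. Members were the events reported in all 12 libraries whose middle exon matched a GENCODE exon of a protein-coding gene with a symbol starting RAB, SEC, VPS, SNX, STX, VAMP, EXOC, COP, TMED, TBC1D, DENND, ARFGAP, TRAPPC or AP1 to AP4. There were 134 of them, in 90 genes, among 4992 events reported in all 12 libraries. At least 10 isoform-specific reads in every library, the minimum for testing inclusion, were present for 73 members in 56 genes, among 2695 events. Low read number therefore left 61 members without an inclusion test, and all 134 were examined for read level.

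Stable derivatives of the line carried an empty vector (MSCV), siRNA-resistant wild-type TIP60 or siRNA-resistant catalytically dead TIP60. Either control siRNA or siRNA to TIP60 was transfected into each line, and cells were taken 72 h later, which gave 6 groups of 2 libraries numbered 1 and 2. All 6 groups were therefore derivatives of 1 cell line that had been transfected with an siRNA, and the sources used here do not say whether a derivative was a clone or a pool, nor whether the 2 libraries of a group came from separate cultures. P-values then measure the spread between these libraries, which may be technical.

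Vesicle traffic moves membrane and cargo between compartments. Coats and adaptor complexes select cargo and shape the vesicle, Rab GTPases and their activators and inactivators label the membrane, tethers capture the vesicle, and SNARE proteins fuse it with its target. In epithelial cells these steps sort proteins between the apical and basolateral surfaces and recycle receptors and adhesion molecules. Very short cassette exons in adaptor and SNARE genes are best known from neurons.

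Sequences of the exons that the results turn on are given from the GENCODE transcripts (GRCh38), 5′ to 3′ along the transcript, with the cassette exon in capitals and 15 bases of each neighbouring exon in lower case. The first set holds the shortest tested members and the related AP-2 exon, shown because their length decides which reads can identify them.
STX16, chr20:58659623-58659634, plus strand: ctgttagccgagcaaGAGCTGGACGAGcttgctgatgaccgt
AP1B1, 9 nt, chr22:29329712-29329720, minus strand: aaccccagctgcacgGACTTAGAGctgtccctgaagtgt
AP1B1, 21 nt, chr22:29339754-29339774, minus strand: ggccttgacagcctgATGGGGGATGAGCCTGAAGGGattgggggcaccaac
RAB3GAP1, chr2:135167693-135167713, plus strand: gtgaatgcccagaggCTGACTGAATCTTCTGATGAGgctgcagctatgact
AP2B1, chr17:35670857-35670898, plus strand: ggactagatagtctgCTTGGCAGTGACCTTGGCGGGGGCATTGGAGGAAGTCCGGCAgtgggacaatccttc
The 21-nt AP1B1 exon and the 42-nt AP2B1 exon follow matching positions of paralogous subunits, and 11 of the 15 bases before them were identical. All 5 exons lie within coding sequence.

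The second set holds 3 exons, described below, whose inclusion moved in one direction in 6 of 6 pairs. The COPS3 and COPS8 exons did so too and are not shown.
TMED5, chr1:93156036-93156084, minus strand: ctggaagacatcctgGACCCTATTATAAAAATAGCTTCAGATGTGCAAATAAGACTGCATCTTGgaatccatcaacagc
TBC1D7, chr6:13325094-13325174, minus strand: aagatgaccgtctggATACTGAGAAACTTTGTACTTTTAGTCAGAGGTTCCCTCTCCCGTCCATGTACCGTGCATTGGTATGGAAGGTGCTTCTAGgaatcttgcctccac
VPS26C, chr21:37240496-37240639, minus strand: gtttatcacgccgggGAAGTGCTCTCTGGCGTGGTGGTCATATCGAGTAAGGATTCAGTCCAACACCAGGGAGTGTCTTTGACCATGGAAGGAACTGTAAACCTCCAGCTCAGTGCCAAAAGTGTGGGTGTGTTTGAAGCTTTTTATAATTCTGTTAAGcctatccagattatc
The 49-nt TMED5 exon is the only one of these 3 whose length is not a multiple of 3. In the third set the capitals mark only the bases that a longer form of an exon adds to a shorter one with which it shares its other end. These forms are shown because the 2 replicate numbers gave different levels for them.
AP2S1, 156 nt, chr19:46839465-46839620, minus strand: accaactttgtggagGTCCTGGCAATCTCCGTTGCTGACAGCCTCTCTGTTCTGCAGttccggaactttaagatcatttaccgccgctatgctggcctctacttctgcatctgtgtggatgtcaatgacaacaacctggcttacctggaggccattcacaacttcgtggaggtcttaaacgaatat
RAB5IF, 158 nt, chr20:36609601-36609758, plus strand: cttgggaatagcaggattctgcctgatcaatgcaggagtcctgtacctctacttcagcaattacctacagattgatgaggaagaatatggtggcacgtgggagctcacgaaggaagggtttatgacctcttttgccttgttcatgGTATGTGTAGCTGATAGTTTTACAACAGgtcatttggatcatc
The AP2S1 form adds 42 nt at its start, and the RAB5IF form adds 28 nt at its end.

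Members were mostly coding exons of ordinary size. Of the 134, 104 were coding, 13 were part coding and 17 lay in the 5′ UTR, and 30 of the 90 genes contributed 2 or more events. The 134 events covered 130 distinct exons, since 4 exons of VPS29, EXOC7, TRAPPC6A and COPS7B each occurred in 2 events with different neighbours. Tested members had a median length of 123 nt, against 126 nt over all tested events, and 57.5% of their lengths were multiples of 3, against 56.1%. Inclusion, the share of transcripts that hold the exon on a scale from 0 to 1, averaged 0.9 or more in 35 of the 73 (47.9%, against 38.4% of all tested events) and 0.1 or less in 13 (17.8%, against 15.4%). The symbol rule also brought in genes of other function, chiefly 13 events of the COP9 signalosome genes COPS3, COPS4, COPS7A, COPS7B and COPS8, which regulate ubiquitin ligases. RABL2A and RABL2B are near-identical copies, and the exons of SNX15, STX16, RAB5IF, VPS33B and RABGEF1 are shared with an overlapping or readthrough gene, so the origin of their reads is uncertain.

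The libraries numbered 1 were deeper, with 1983221 to 2280488 reads compatible with an event, than those numbered 2, with 1277953 to 1566296. The median member tested had 112 to 136 isoform-specific reads in the former and 48 to 78 in the latter. KAT5 reads with its cassette exon fell from 9.73 ± 4.71 RPM (reads scaled to the same total of event-compatible reads in each library, SD, n = 6 libraries) under control siRNA to 2.01 ± 1.36 (n = 6) under TIP60 siRNA, lower in 6 of 6 pairs (exact paired permutation test, two-sided, p = 0.03125, the smallest it allows). That check covers the KAT5 form with the exon only. In replicates 1 and 2, reads without it were 8.38 and 0.731 RPM in empty-vector cells, then 2.52 and 0 under TIP60 siRNA. In wild-type cells they were 2291 and 93, then 1654 and 76.8. In catalytically dead cells they were 988 and 35.1, then 885 and 28.2. These levels differed between lines and between replicate numbers, and their part in the comparisons of lines was not tested. Of 14 epithelial markers, 7 had events in all 12 libraries, with a summed level of 3162 to 5326 RPM under control siRNA and 3315 to 5838 under TIP60 siRNA. Of 10 mesenchymal markers, FN1 and FBLN1 had such events. Their summed level was 53.1 to 966 RPM (median 371) under control siRNA and 44.7 to 2509 (median 731) under TIP60 siRNA. In the limma fit of read levels with replicate number as a block, 4 of their 5 events passed for the average of the lines. Of these, 3 were higher and 1 lower, and 16.8% of all events passed. The part of these 2 genes in the member results was not tested. None of 10 immune and 4 endothelial markers had an event in all 12 libraries.

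The first question was whether TIP60 siRNA changed inclusion of these exons. No member passed an adjusted p of 0.05 in limma in the empty-vector line, in the wild-type line, in the catalytically dead line or in their average. Over all 2695 tested events the same test called 0.0371%, 0%, 0.0371% and 2.19%, or 59 events for the average. With the replicate number as a block, members called were again 0 in each, against 0.148%, 0.148%, 0.371% and 4.27% of all tested events. At an unadjusted p under 0.05 there were 3, 2, 4 and 8 members, of which the last is 8 of 73 against a background of 12.3% (6.6%, 4.3% and 6.75% in the single lines). A quasi-binomial model of the isoform-specific reads called 0 members in each of the 4 comparisons (background 0%, 0%, 0% and 0.26%). It gave 3, 3, 5 and 9 members at an unadjusted p under 0.05, against 7.9%, 5.83%, 8.65% and 15% of all tested events. The plain share of isoform-specific reads that held the exon, fitted the same way, called 1, 1, 2 and 2 members, with the TBC1D22A exon, described below, in each (background 0.186%, 0.0742%, 0.445% and 1.48%).

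Average differences were small and leaned downward, as over all events. The median member difference, TIP60 siRNA minus control siRNA, was -0.005, against -0.0067 over all tested events. It was below 0 for 47 members and above 0 for 23. The typical size, the median of absolute differences, was 0.013 for members and 0.018 for all. Inclusion was lower in 6 of 6 pairs of equal line and replicate number for 4 members, the exons of COPS3, COPS8, TBC1D7 and VPS26C, against 9.46% of all tested events. It was higher in 6 of 6 pairs for TMED5, against 2.34%. Both TIP60-siRNA libraries lay below both control libraries in all 3 lines for VPS26C (background 4.12%) and above them for TMED5 (background 0.928%).

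Among coats and cargo receptors, the exon with the smallest p-value was in TMED5, a member of the p24 family that carries cargo between the endoplasmic reticulum and the Golgi. In empty-vector cells TMED5 inclusion was 0.08 and 0.01 under control siRNA and 0.16 and 0.16 under TIP60 siRNA. In wild-type cells TMED5 went from 0.02 and 0.02 to 0.04 and 0.10, and in catalytically dead cells from 0.02 and 0.05 to 0.09 and 0.12. The groups did not overlap within any line, although the exon stayed a minor form throughout. Reads holding the TMED5 exon numbered 0 to 15 in the control libraries and 6 to 26 in the TIP60-siRNA libraries, beside 60 to 213 and 45 to 214 reads without it. The average difference in TMED5 was 0.078 ± 0.017 (SE, 6 libraries a condition), with an adjusted p of 0.0788 in limma and 0.0629 with the replicate block. The siRNA effect in wild-type cells minus that in empty-vector cells was -0.065 ± 0.041 for TMED5 (limma adjusted p = 1), and its sign reversed on the odds scale of the read model, where the log2 value was 0.31.

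**Figure D1:**
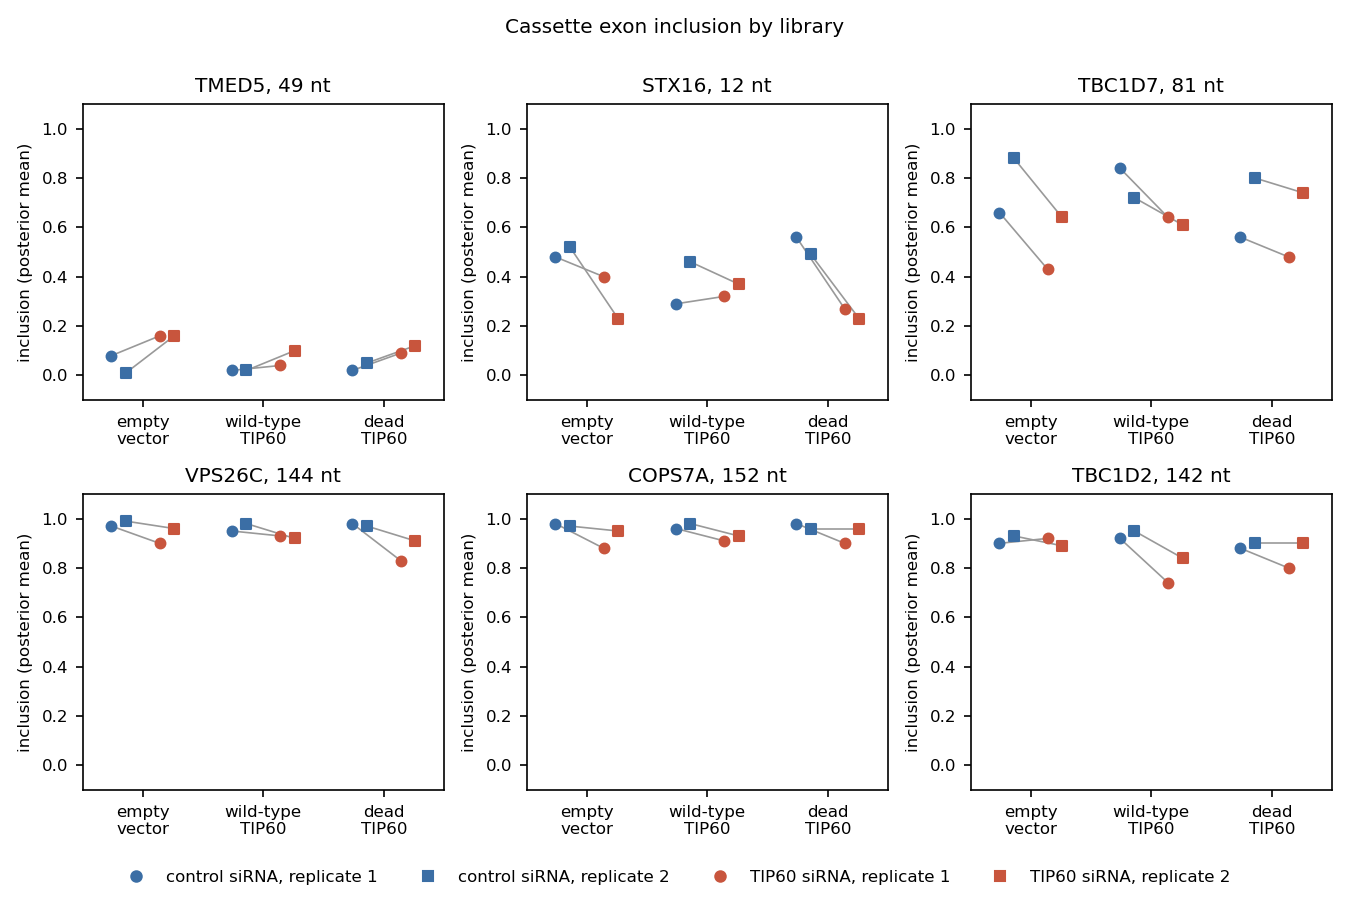
Inclusion (posterior mean, 0 to 1) in each of the 12 libraries for 6 member exons, with the 3 lines on the horizontal axis, blue for control siRNA, red for TIP60 siRNA, circles and squares for replicate numbers 1 and 2, and grey lines joining equal numbers. TMED5 stayed between 0.01 and 0.16 with every red point above the blue points of its line, and VPS26C stayed between 0.83 and 0.99 with every red point below them.

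Among SNARE genes, the 12-nt exon of STX16, a SNARE of the trans-Golgi network, had the largest average difference of the 10 members with the smallest p. STX16 inclusion in empty-vector cells was 0.48 and 0.52 under control siRNA and 0.40 and 0.23 under TIP60 siRNA. In catalytically dead cells STX16 went from 0.56 and 0.49 to 0.27 and 0.23, while in wild-type cells the values 0.29 and 0.46 and the values 0.32 and 0.37 overlapped. The average STX16 difference was -0.163 ± 0.041 (SE), lower in 5 of 6 pairs, with an adjusted p of 0.134 in limma and 0.105 with the block. The depth was low, with 18 to 59 isoform-specific reads per library, which is the sum of 7 to 32 reads with the exon and 8 to 28 without it. The effect in catalytically dead cells minus that in wild-type cells was -0.245 ± 0.101 for STX16, with an unadjusted p of 0.0461 and an adjusted p of 1 in limma, so a difference between the lines was not shown.

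All 6 tested exons of TBC1D genes, which encode a domain that inactivates Rab GTPases, had an average difference below 0, as had 1676 of the 2695 tested events, with a median of -0.024, and 0 of them passed the test. TBC1D7, a subunit of the TSC complex upstream of mTORC1, gave 0.66 and 0.88 under control siRNA and 0.43 and 0.64 under TIP60 siRNA in empty-vector cells. TBC1D7 went from 0.84 and 0.72 to 0.64 and 0.61 in wild-type cells and from 0.56 and 0.80 to 0.48 and 0.74 in catalytically dead cells. Each pair was lower, yet the groups overlapped in the catalytically dead line. The average TBC1D7 difference was -0.153 ± 0.075 (SE, limma adjusted p = 0.5, and 0.231 with the block). TBC1D2, which inactivates RAB7, went from 0.92 and 0.95 to 0.74 and 0.84 in wild-type cells, where reads without its exon numbered 4 and 6 under control siRNA and 19 and 15 under TIP60 siRNA. In empty-vector cells TBC1D2 had 0.90 and 0.93 against 0.92 and 0.89. The difference between those lines was -0.135 ± 0.059 for TBC1D2 and did not pass (limma adjusted p = 1).

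The 177-nt TBC1D22A exon was nearly complete, but reads without it occurred under TIP60 siRNA alone. They numbered 0 in each of the 6 control libraries, beside 38 to 248 with the exon. Under TIP60 siRNA they numbered 1 and 4 in empty-vector, 1 and 5 in wild-type and 1 and 4 in catalytically dead cells, beside 77 to 305 with the exon. The fit of the read share called TBC1D22A in each line and in the average, but its spread rests on controls that are all at 0, so its p-values are not given. By posterior mean the average difference of TBC1D22A was -0.018 ± 0.025 (SE, adjusted p = 0.966), within 0.86 to 0.98, and the quasi-binomial model gave an adjusted p of 0.119.

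For VPS26C, a subunit of the Retriever complex that recycles receptors from endosomes, inclusion and the reads behind it were both lower in 6 of 6 pairs. VPS26C inclusion was 0.97 and 0.99 against 0.90 and 0.96 in empty-vector cells, 0.95 and 0.98 against 0.93 and 0.92 in wild-type cells, and 0.98 and 0.97 against 0.83 and 0.91 in catalytically dead cells. The average difference was -0.065 ± 0.018 (SE, limma adjusted p = 0.17, and 0.0684 with the block). Reads with the VPS26C exon numbered 58 to 161 in control libraries and 24 to 56 in TIP60-siRNA libraries, and reads without it numbered 0 to 2 everywhere. As a plain read ratio the average VPS26C difference was -0.007, with an adjusted p of 0.727 in limma. COPS8 showed the same arrangement, with 6 of 6 pairs lower and a range of 0.72 to 0.99 although no read without its 108-nt exon occurred in any library. The quasi-binomial model with the replicate block called 1 member for the average, COPS8 (background 6.35%). With 0 reads without the exon throughout, the fitted odds of COPS8 follow its read number and the 0.5 added to each count, and the call says nothing of its inclusion.

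**Figure D2:**
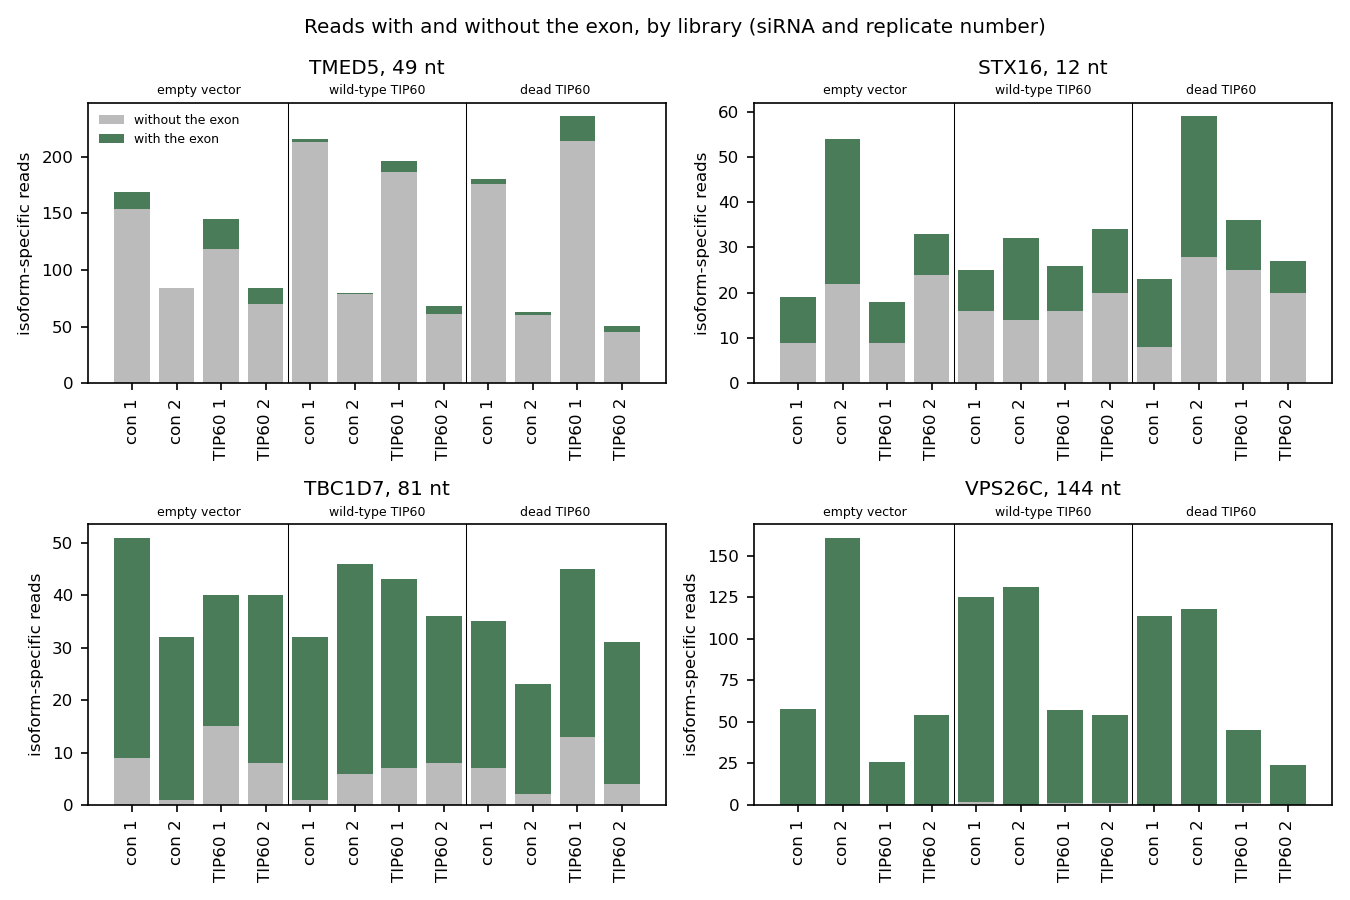
Isoform-specific reads with the exon (green) and without it (grey) in each of the 12 libraries for TMED5, STX16, TBC1D7 and VPS26C, as stacked bars from 0, with siRNA and replicate number on the horizontal axis and the lines separated by vertical rules. TMED5 was mostly grey with 0 to 26 green reads, and VPS26C was almost wholly green with 24 to 161 reads.

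VPS37A and RAB17, also among the smallest p-values, had nearly complete exons with few reads against them. VPS37A, a subunit of ESCRT-I, went from 0.92 and 0.90 to 0.80 and 0.79 in empty-vector cells, with 2 to 4 reads without its exon in those 4 libraries, and its average difference was -0.06 ± 0.015 (SE, limma adjusted p = 0.133). RAB17, a Rab GTPase of polarized epithelia, went from 0.94 and 0.97 to 0.82 and 0.86 in catalytically dead cells. Reads with the RAB17 exon there numbered 46 and 69 under control siRNA and 21 and 19 under TIP60 siRNA, beside 0 to 1 without it. RAB11FIP1, an effector of RAB11 in recycling endosomes, had a 1902-nt exon at 0.16 to 0.27, with an average difference of 0.048 ± 0.019 (SE, limma adjusted p = 0.337) that turned to -0.033 as a read ratio. COPS7A was lower in 5 of 6 pairs within 0.88 to 0.98, with an average difference of -0.05 ± 0.016 (SE, limma adjusted p = 0.224).

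Adaptor genes held the shortest exons, and none of the 7 tested had an unadjusted p under 0.05 for the average. The 9-nt exon of AP1B1, the beta subunit of the AP-1 complex of the trans-Golgi network, was at 0.05 to 0.10 in control libraries and 0.07 to 0.25 in TIP60-siRNA libraries, higher in 5 of 6 pairs. Its average difference was 0.045 ± 0.026 (SE, limma adjusted p = 0.617), and the value of 0.25 came from 1 library, replicate 2 of the catalytically dead line under TIP60 siRNA. The 21-nt AP1B1 exon had no read with the exon in any library against 951 without it, which allows a share of up to 0.315%. RAB3GAP1, the catalytic subunit that inactivates and also activates certain Rabs, had none against 574 for its 21-nt exon, an allowance of 0.523%. These limits are shares of isoform-specific reads pooled over the 12 libraries, not of transcripts, and cover counting error only. Posterior mean inclusion averaged 0.0142 for this AP1B1 exon and 0.0225 for RAB3GAP1, with upper interval ends of up to 0.10 and 0.11 in single libraries. The 42-nt exon of AP2B1, in the adaptor of clathrin-mediated endocytosis, was included at 0.14 to 0.50.

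Among members below the read minimum, 5 pointed one way in 6 of 6 pairs, namely SNX16, AP1S2, VPS29 and RAB7A upward and the 81-nt VPS26C exon downward. These are 4 and 1 of 61, against 3.35% and 5.62% of the 2297 events below the minimum. The 246-nt exon of SNX16, in the 5′ UTR of an endosomal sorting nexin, went from 0.03 to 0.13 in control libraries to 0.10 to 0.47 in TIP60-siRNA libraries, on 4 to 26 isoform-specific reads per library. Its average difference in a fit without a read minimum was 0.212 ± 0.067 (SE, limma adjusted p = 0.274). The 9-nt AP1S2 exon, of the AP-1 sigma subunit, read 0.05 to 0.13 and then 0.14 to 0.26. No AP1S2 read held the exon in any library, and reads without it numbered 10 to 24 under control siRNA and 3 to 9 under TIP60 siRNA. The 40-nt VPS29 exon, in the 5′ UTR, lay at 0.05 to 0.17 and then 0.08 to 0.25 on 1 to 6 reads with the exon. VPS29 reads without it numbered 6 to 51 in the libraries numbered 2 and 0 in each of those numbered 1. In the latter every isoform-specific read thus held the exon, although inclusion there was 0.10 to 0.25. The 78-nt RAB7A exon lay at 0.42 to 0.94 and then 0.65 to 0.96, on 0 to 3 reads without it per library. Reads with the RAB7A exon numbered 3 to 118. The value of 0.42 came from replicate 2 of wild-type cells under control siRNA, on 3 reads with the exon and 2 without. The 81-nt VPS26C exon lay at 0.74 to 0.89 and then 0.63 to 0.83, on 2 to 56 reads with it and 0 to 4 without. These 5 were chosen after their values were seen, and none passed in the fit without a read minimum (limma adjusted p of 0.25 or more).

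Genes with 3 or more tested events showed how forms of 1 gene differ. In SEC11A, a catalytic subunit of the signal peptidase, the 58-nt and 150-nt coding exons were nearly always included, at 0.98 to 1 and 0.92 to 0.98, and the 136-nt exon of the 5′ UTR was minor, at 0.03 to 0.28. The average difference of that SEC11A exon was -0.078 ± 0.060 (SE, limma adjusted p = 0.787). In AP2S1, the sigma subunit of AP-2, the 150-nt exon stayed at 0.92 to 1. Reads without it in the libraries numbered 1 were 12, 10 and 14 under control siRNA and 32, 32 and 33 under TIP60 siRNA, while those numbered 2 had 0 to 2. The average difference of that AP2S1 exon was -0.013 ± 0.021 (SE, limma adjusted p = 0.973). COPS7B had exons of 178 and 76 nt at 0.72 to 0.94 and a pair of overlapping exons of 68 and 53 nt at 0.01 to 0.07, and none of the 4 had an unadjusted p under 0.05 for the average.

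The difference of siRNA effects between lines asks whether an siRNA-resistant copy alters the response. Members called by limma were 0 for wild-type minus empty-vector, 0 for catalytically dead minus empty-vector and 0 for catalytically dead minus wild-type, against 0% of all tested events in each. At an unadjusted p under 0.05 there was 1 member in the first (VPS37A, background 1.71%), 1 in the second (RAB17, background 1.34%) and 3 in the third (RAB17, SEC22C and STX16, background 1.19%). SEC22C, related to a SNARE of early secretory traffic, gave 0.86 and 0.80 against 0.96 and 0.95 in wild-type cells and 0.87 and 0.93 against 0.92 and 0.80 in catalytically dead cells, on 0 to 2 reads without its exon per library. Under control siRNA, wild-type or catalytically dead TIP60 against empty vector called 0 members and 0% of all events. No member had an unadjusted p under 0.05, against 1.6% and 0.853%. The quasi-binomial model called 0 members in these 5 comparisons.

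Inclusion of some members differed by replicate number. Means of the 6 libraries numbered 1 and the 6 numbered 2 differed by more than 0.1 for 19 of 73 members (26.0%, against 22.7% of all tested events), 12 of them higher in the libraries numbered 1. The 156-nt AP2S1 form averaged 0.37 in the former and 0.773 in the latter, and its 114-nt form averaged 0.982 and 0.955. Reads without the 156-nt form numbered 0 to 2 in every library, beside 19 to 121 with it. The 158-nt RAB5IF form averaged 0.733 and 0.382, while its 130-nt form averaged 0.96 and 0.94. COPE, the epsilon subunit of the COPI coat, had a 153-nt exon at 0.937 and 0.572. The 96-nt exon of RAB1A, which acts between the endoplasmic reticulum and the Golgi, averaged 0.973 and 0.7, and the RAB9A exon 0.405 and 0.687. Depth differed between these libraries as given above. The share of reads that fitted neither form also differed, at 50.1% to 53.2% in the libraries numbered 1 and 64.5% to 65.7% in those numbered 2. The part of depth and of this share was not tested.

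**Figure D3:**
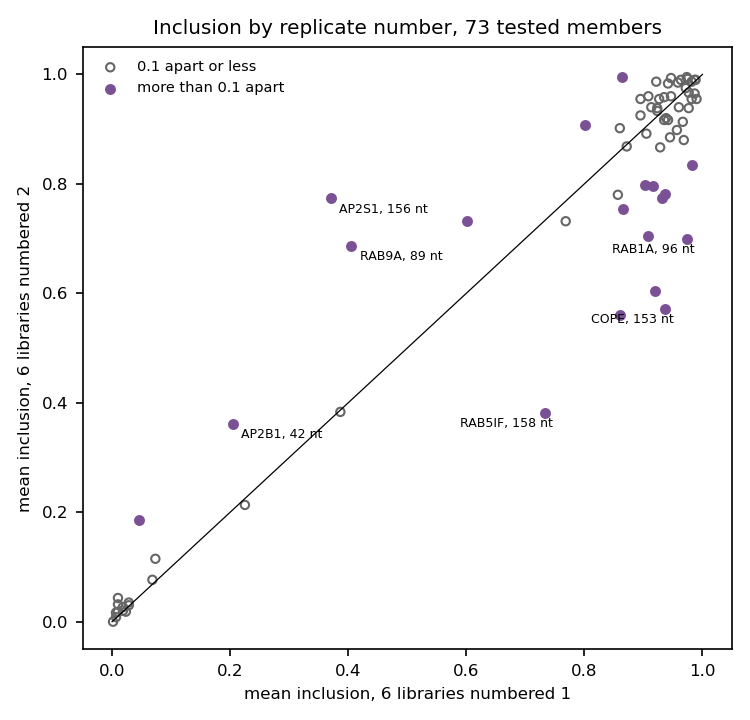
Mean inclusion of the 73 tested members in the 6 libraries numbered 1 (horizontal) and the 6 numbered 2 (vertical), each point an exon, purple where the means differ by more than 0.1 and the line marking equality. The 19 purple points include AP2S1 (156 nt) at 0.37 and 0.773 and RAB5IF (158 nt) at 0.733 and 0.382.

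The second readout was the event read level, the reads compatible with at least 1 form of an event, in RPM. It covers 3 exons, not the gene, and in bulk RNA fewer cells of a type and less RNA per cell cannot be told apart. Without the replicate block, limma called 0 of 134 members in each line, in the average and in both construct comparisons, against 0% of 4992 events in each except the average, where 0.741% were called. Members at an unadjusted p under 0.05 numbered 5, 1, 2, 11, 1 and 0, against 4.77%, 1.88%, 4.67%, 11%, 0.2% and 0% of all events. With the block, 4 members passed in empty-vector cells (background 3.08%), 0 in wild-type cells (0.02%), 3 in catalytically dead cells (2.84%) and 22 for the average (16.8%). The 22 made up 16.4% of members. They came from 17 genes, with 12 events of 10 genes lower (background 10.7%) and 10 events of 7 genes higher (background 6.03%). Levels were lower in 6 of 6 pairs for 21 members (background 18.7%) and higher for 19 (background 12.1%). The median average difference on the log2 scale was 0.01 for members and -0.10 for all events.

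Of the 7 SNARE events 1 was lower with the block, and of the 24 sorting nexin and VPS events 4 were lower and 2 higher. STX2, a SNARE of the plasma membrane, had 192 and 217 RPM under control siRNA and 97.2 and 69.7 under TIP60 siRNA in empty-vector cells. STX2 went from 210 and 163 to 157 and 100 in wild-type cells and from 220 and 207 to 82.4 and 80.6 in catalytically dead cells, with no overlap in any line. The average log2 difference of STX2 was -1.08 ± 0.14 (SE, block), a fold of 0.472, with an adjusted p of 0.00137 with the block and 0.0622 without it in limma. In a limma fit of all events with at least 20 event reads in each library, STX2 passed without the block (adjusted p = 0.0352). The log2 difference was -1.30 in empty-vector, -0.56 in wild-type and -1.38 in catalytically dead cells, and whether the lines differ was not tested.

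VPS26A, a subunit of the retromer that returns cargo from endosomes to the Golgi and surface, went from 577 and 439 to 289 and 252 RPM in empty-vector cells. It went from 457 and 470 to 379 and 320 in wild-type cells and from 577 and 421 to 427 and 280 in catalytically dead cells, where the groups overlapped. The average log2 difference of VPS26A was -0.61 ± 0.11 (SE, block), with an adjusted p of 0.00654 with the block and 0.234 without. Both VPS26C events fell too, at -1.35 ± 0.29 for the 144-nt exon (block adjusted p = 0.0127, limma) and -1.35 ± 0.27 for the 81-nt exon (0.00967), on overlapping reads of 1 gene. VPS29, which belongs to both complexes, had 3 events between -0.74 and -0.58 and 1 at -0.01, and VPS35L, of Retriever, had 0.12 and 0.13. None of these 6 passed, with block adjusted p of 0.149 or more. VPS37A of ESCRT-I fell by 1.03 on the log2 scale (block adjusted p = 0.0145).

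Of the 36 events of Rab GTPases and their effectors 3 were lower and 3 higher. Of the 20 events of COP, SEC and TMED genes outside the COP9 signalosome 1 was lower and 1 higher. This group holds coats, translocon and cargo receptors but also signal peptidase subunits. Its lower event was that of TMED4 and its higher event that of SEC11C, of the signal peptidase. TMED4, a p24 cargo receptor, went from 623 and 646 to 375 and 315 RPM in empty-vector cells, from 821 and 504 to 566 and 379 in wild-type cells and from 647 and 525 to 393 and 284 in catalytically dead cells. The groups overlapped in wild-type cells alone. Its average log2 difference was -0.72 ± 0.12 (SE, block), with an adjusted p of 0.00344 with the block and 0.184 without. RAB5C, a Rab of early endosomes, stood apart between replicate numbers, at 153 to 185 RPM in the control libraries numbered 1 and 366 to 403 in those numbered 2. Each RAB5C pair fell, to 66.0 to 117 and 157 to 268, an average log2 difference of -0.91 ± 0.13 (SE) with a block adjusted p of 0.00213, against 0.533 without the block. RAB27A, of secretory lysosomes, and RAB28 fell by 1.41 and 0.52 (block adjusted p = 0.04 and 0.0357), and AP1S2 fell by 1.21 (0.00707). TMED4, RAB5C, STX2 and VPS26A were the 4 called in empty-vector cells, and STX2, RAB5C and COPS8 the 3 called in catalytically dead cells.

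**Figure D4:**
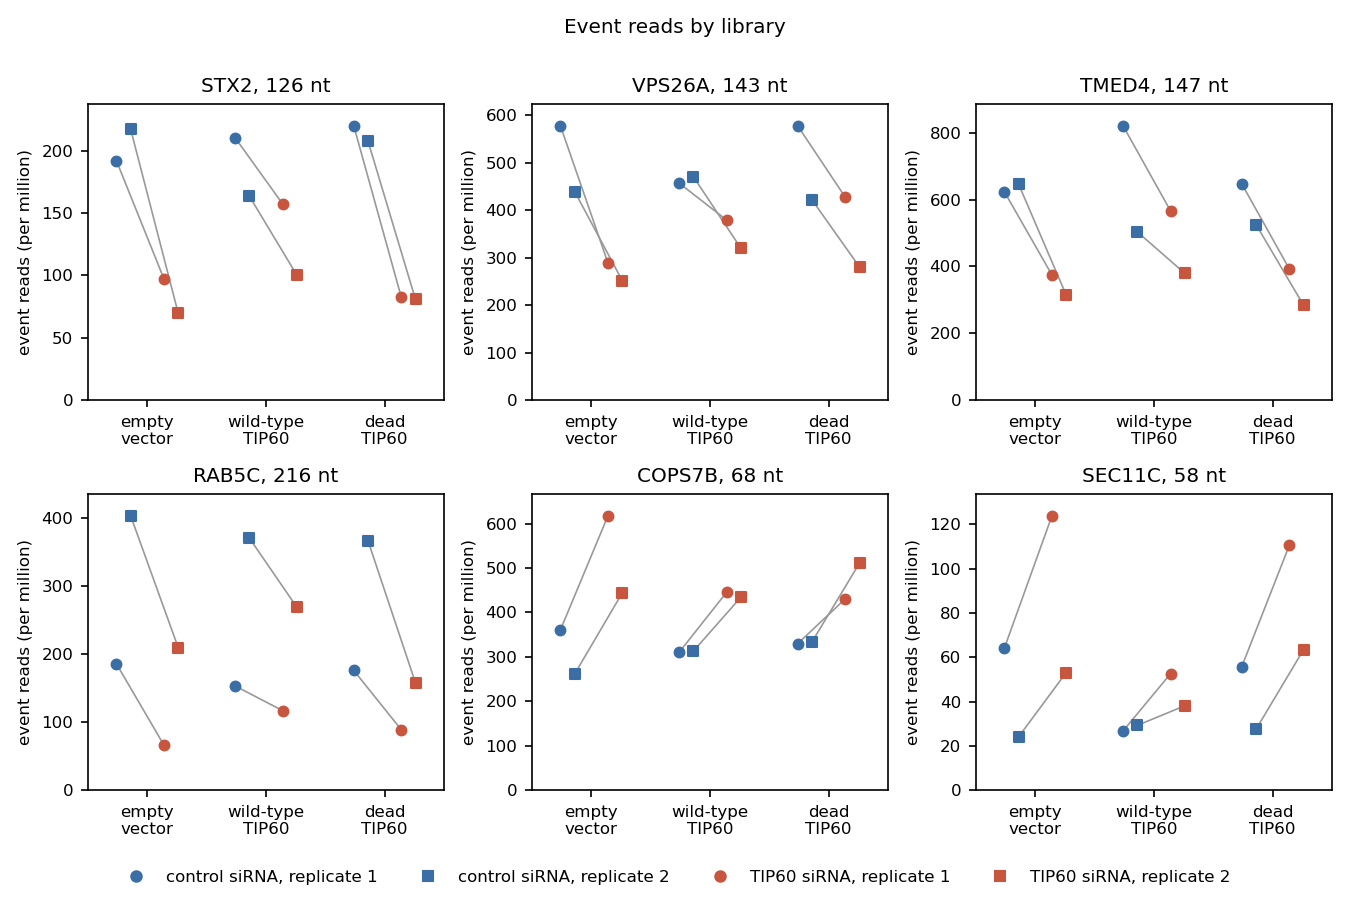
Event reads (RPM) in each of the 12 libraries for 6 member events, drawn as in the plot of inclusion by library with the vertical axis from 0. STX2, VPS26A, TMED4 and RAB5C fell in all 6 pairs, and COPS7B (68 nt) and SEC11C rose in all 6.

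Among the higher events outside the COP9 signalosome, SEC11C and the RABEPK events had among the larger folds, at 1.90, 1.62 and 1.72. SEC11C, a catalytic subunit of the signal peptidase, went from 64.2 and 24.1 to 124 and 53.1 RPM in empty-vector cells, from 26.7 and 29.2 to 52.6 and 38.1 in wild-type cells and from 55.8 and 27.5 to 111 and 63.4 in catalytically dead cells. The groups overlapped in empty-vector cells alone. The average log2 difference of SEC11C was 0.93 ± 0.22 (SE, block; adjusted p = 0.0182, and 0.415 without the block, limma). SNX15, a sorting nexin of endosomes, rose by 0.76 ± 0.13 (block adjusted p = 0.00411), in reads that the readthrough gene may share. RABEPK, a RAB9 effector, rose in both of its events, by 0.70 and 0.78 (0.0135 and 0.0432), and RABEP2, a rabaptin that binds RAB5, by 0.60 (0.0351). VPS18, shared by the HOPS and CORVET tethers, rose by 0.40 (0.0344), in 5 of 6 pairs, and the 177-nt TBC1D22A event by 0.54 (0.0301). All 22 kept their direction when scaled by median-of-ratios factors, which moved the median of all events from -0.10 to 0.01.

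The COP9 signalosome genes, which are not traffic genes, held 5 of the 22. The 68-nt COPS7B event went from 361 and 262 to 617 and 443 RPM in empty-vector cells, from 310 and 313 to 445 and 434 in wild-type cells and from 330 and 334 to 431 and 511 in catalytically dead cells, with no overlap in any line. Its log2 difference was 0.59 ± 0.12 (SE, block adjusted p = 0.0123, limma). The 53-nt COPS7B event, on the same reads, gave 0.58, and the 89-nt event 1.01. Both COPS8 events fell, by 1.09 and 0.93 (block adjusted p = 0.00128 and 0.00844).

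**Figure D5:**
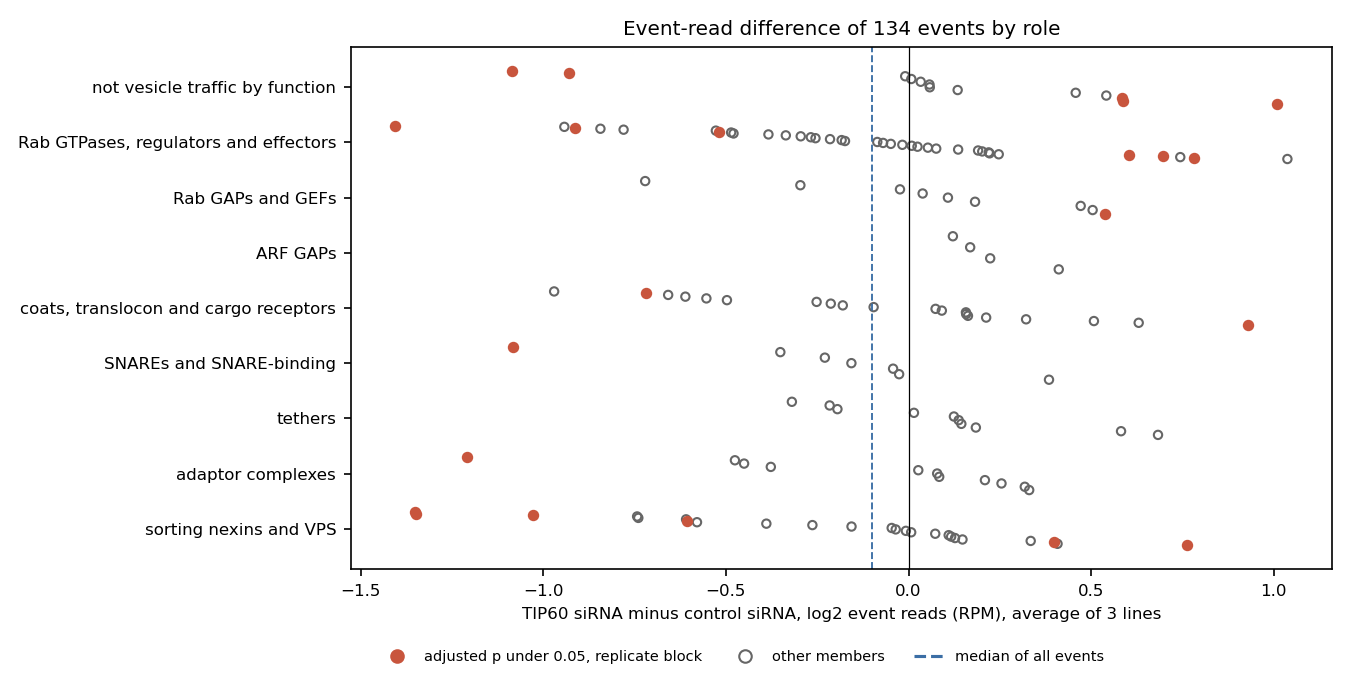
Average log2 difference in event reads (RPM), TIP60 siRNA minus control siRNA, for the 134 member events grouped by role, with red points passing an adjusted p of 0.05 with the replicate block, open points the others and the dashed line the median of all events at -0.10. The 22 red points lie on both sides, 12 below 0 and 10 above. Roles follow symbol starts, so the group of coats, translocon and cargo receptors also holds the signal peptidase genes SEC11A and SEC11C.

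In the construct comparisons under control siRNA, no member passed for event reads with or without the block. The smallest p for wild-type TIP60 was that of a TRAPPC6A event, a subunit of the TRAPP tether, at 1.58 ± 0.69 (SE, limma unadjusted p = 0.049, adjusted p = 1), and its second event, with the same exon and another neighbour, gave 1.05 ± 0.76.

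Traffic genes outside these symbol starts were read from a list of 263 genes, such as clathrin, dynamin, ESCRT-III and ARF genes. Of these, 90 had an event in all 12 libraries and 63 a tested one, 77 events in all. For average inclusion limma called 0 of 77 (background 2.19%), and 4 with the block (background 4.27%), each lower: MON1A, NUMB, ASAP2 and ACAP3. Of the 115 events called with the block over all tested events, 101 were lower. The 486-nt exon of MON1A, of the complex that activates RAB7, went from 0.57 to 0.90 over the control libraries to 0.43 to 0.57 over the TIP60-siRNA libraries, an average of -0.283 ± 0.055 (SE, adjusted p = 0.0537, and 0.0301 with the block). The 294-nt exon of NUMB, an endocytic adaptor and Notch inhibitor, went from 0.85 to 0.97 to 0.63 to 0.79, an average of -0.153 ± 0.032 (0.0674 and 0.0313). Its 144-nt and 147-nt exons each had an average difference of 0.042 and did not pass (block adjusted p = 0.395 and 0.568). For event reads 1 of 130 was called (background 0.741%), and 16 with the block (12.3%, against 16.8% of all events). Of the 16, 11 were lower (background 10.7%) and 5 higher (background 6.03%).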

How the data were processed

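RNA of 12 libraries (3 MCF10A derivatives, control or TIP60 siRNA, replicates 1 and 2) was read with a stranded mRNA kit, per the labels' protocols. STAR and build hg38 are named in the submitters' processing notes, while the sources used here give no version, event annotation or splicing settings. Each deposited table holds, per cassette-exon event, MISO's posterior mean inclusion as a fraction with its interval, and read numbers by class (fitting the form with the exon, without it, both or neither), per the file headers.

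Inclusion fractions were compared as deposited, in events with at least 10 isoform-specific reads in each library. Event reads, those fitting at least 1 form, were divided by their total per library (RPM) and compared as log2(RPM + 0.5), which understates changes of low events. Both used limma 3.58.1 in R 4.3.3 on 1 fit of 12 libraries and 6 groups, with mean trend and robust moderation, two-sided, Benjamini-Hochberg adjustment over all events of a comparison and a threshold of 0.05. Splicing fractions carry no count of molecules, so intervals and limits cover counting error only, and a count of 0 is taken to allow 3. Same-numbered libraries deviated from their group means together, with a correlation of 0.744, 0.779 and 0.763 over 2695 inclusion values and 0.855, 0.896 and 0.852 over 4992 event read values in the 3 lines. Control libraries numbered 1 of different lines did so too. The correlation of empty-vector with wild-type and with catalytically dead cells was 0.745 and 0.774 for inclusion and 0.763 and 0.811 for event reads. The shared deviation thus went with the replicate number across lines, not only within a line. The numbers were treated as pairs, and the fit with replicate number as a block is given beside the results it changes. Alternatives were other read minimums, scales, read shares, a quasi-binomial model, other pseudocounts and scaling factors, and leaving out each library. A quasi-binomial model with the block was added after the data were seen. Scripts were tested on simulated data.

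Exons were matched on strand and both ends to GENCODE release 29 (GRCh38), which also gave the sequences. The members and lists were chosen with earlier results of these data known. Named members were the 10 of smallest p for the average, the 5 of smallest p in each line, difference and construct comparison, the 2 of smallest p per role, those whose groups separated in all 3 lines, and for event reads all that passed up to 10 a direction. The lists were 263 other traffic genes and epithelial, mesenchymal, immune and endothelial markers. Of these symbol starts, 1 gene was left out and 1 other is counted but not reported here.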

Additional observations from a re-analysis of the deposited data

How the results depend on the processing

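Counts of members called for inclusion stayed at 0 in the 9 comparisons under every alternative except 2. The read share called 1 in empty-vector cells, 1 in wild-type cells, 2 in catalytically dead cells, 2 in their average, 1 in each of the 2 differences that involve the catalytically dead line and 1 for that line against empty vector under control siRNA. The quasi-binomial model with the replicate block called 1 for the average, COPS8, which had 0 reads without the exon, so that the call rests on read number and the 0.5 added to each count. For event reads the replicate block raised the counts from 0 to 4 in empty-vector cells, 3 in catalytically dead cells and 22 for the average, and in limma it changed no other member call. Outside the members it raised the inclusion calls for the average from 0 to 4 in the list of other traffic genes and from 59 to 115 over all tested events. A minimum of 20 event reads gave 1 for the average. Leaving out 1 library at a time gave 0 in each comparison of both readouts. For all events, scaling by median-of-ratios factors turned the 37 calls without the block, 20 lower and 17 higher, into 16, 6 lower and 10 higher.

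Of 1488 alternatives for 76 single results, 1467 kept direction and side of the threshold, 7 passed it and 14 reversed, and the cause was not tested. RAB11FIP1 for the average reversed to -0.033 as a read share and, on the log2 odds scale, to -0.12 in the quasi-binomial model and -0.22 with its block. TRAPPC3 for the average reversed to 0.0014, 0.035 and 0.032 under the same 3 settings. SEC22C for the average reversed to -0.0052 as a read share. In the difference of wild-type minus empty-vector cells, SEC11A (58 nt) reversed to -0.36 and -0.36, and TMED5 to 0.31 and 0.31, in the quasi-binomial model without and with the block. Without replicate 2 of the catalytically dead line under TIP60 siRNA, ARFGAP1 (110 nt) reversed to 0.015 for the average, the top of a range from -0.078 when 1 library was left out. Without replicate 1 of the empty-vector line under control siRNA, TBC1D22A (177 nt) reversed to -0.01 for the catalytically dead line against empty vector, in a range up to 0.11. Without replicate 2 of the former under control siRNA, the SNX25 event reads of that comparison reversed to 0.42, in a range from -2.34. Depth left 61 of 134 members below the read minimum.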

Other observations

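Posterior mean inclusion and the share of isoform-specific reads stood far apart for some members. Of the 73 tested, 6 had no read without the exon in any library and 2 had no read with it. In 5, over 95% of isoform-specific reads held the exon while mean inclusion was under 0.8. The VPS18 exon had 6545 reads with it and 0 without, which allows a share without it of up to 0.0458%, and a mean inclusion of 0.75. The 153-nt COPE exon had 2803 and 3 reads and a mean of 0.754, and its 156-nt exon 1947 and 6 reads and a mean of 0.71. The 112-nt RAB2A exon had 904 and 3 reads and a mean of 0.763, and the 156-nt AP2S1 form 647 and 5 reads and a mean of 0.572. These 5 were chosen after their values were seen.

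Among very short members below the read minimum, the 18-nt coding exon of TBC1D24, a synaptic and epilepsy-linked gene, was read with the exon in 5 of the 6 libraries numbered 2, 0 to 7 reads each, and in none of the 6 numbered 1. Reads without the exon numbered 2 to 16 in the libraries numbered 1 and 23 to 52 in those numbered 2. Inclusion of this exon was 0.07 to 0.25 under control siRNA and 0.03 to 0.09 under TIP60 siRNA. The value of 0.25 came from replicate 1 of empty-vector cells, on 0 reads with the exon and 2 without it, with an interval of 0.02 to 0.73. The average difference without a read minimum was -0.0733 (limma adjusted p = 0.469).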
